A study of Mus musculus with 30 samples.

Results

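The 15 left ovaries of the series differed widely in transcripts of keratinized, stratified epithelium, and the groups compared here were chosen by their level of Krt5, the keratin of basal keratinocytes. A left ovary was called high at a Krt5 value of at least 200 normalized counts (reads scaled to a common library size, the unit of all levels below) and low at a value under 60. This rule placed 6 left ovaries in the high group and 7 in the low group, so 13 of 15 were compared, out of 30 libraries (1 per ovary, with the mouse as the replicate), and 2 left ovaries between the thresholds entered no comparison. Because Krt5 chose the groups, Krt5 and the related genes of stratified epithelium are described in the left ovaries with no test.

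All mice were C57BL/6 females. Before maturity, the treated mice received 3% dextran sulfate sodium (DSS), a polysaccharide that injures the lining of the colon, in their water for 7 days, and their littermates served as controls. Both ovaries were taken after sexual maturity, and the 3' ends of polyadenylated RNA were counted by CEL-Seq. The high group held 1 DSS mouse (DSS_16.3) and 5 control mice (control_10.5, control_11.4, control_13.4, control_15.3 and control_16.9). The low group held 5 DSS mice (DSS_10.3, DSS_10.4, DSS_11.1, DSS_11.2 and DSS_15.1) and 2 control mice (control_10.6 and control_13.5). The mice between the thresholds were DSS_13.2 and control_15.4. A test of treatment against group gave p = 0.103 (Fisher's exact test, two-sided, 13 mice), and with 1 DSS mouse in the high group the part of the treatment in the differences cannot be told apart from that of the grouping. Both mice whose number starts with 16 were in the high group, and what the leading number stands for is not given in the sources used here. Read depth was similar, with 3095386 to 4807853 reads in the high left ovaries and 3565168 to 4959263 in the low ones (exact permutation test of mean log2 reads, two-sided, p = 0.460). Nothing in the labels says more about how the ovaries were freed from nearby tissue.

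Stratified epithelium is built in layers. Basal cells attach to the basement membrane and express Krt5 and Krt14, and as cells move outward they change to other keratin pairs, Krt1 and Krt10 in skin or Krt4 and Krt13 in the mouth, esophagus and vagina, while Krt6 and Krt16 rise in activated or wounded epithelium. The outermost cells crosslink small proline-rich proteins (Sprr), loricrin and late cornified envelope proteins (Lce) beneath the membrane, and their shedding is set by kallikrein proteases and their inhibitors. The ovary itself is covered by a simple epithelium that has none of these layers. In bulk RNA, a difference in the number of such cells cannot be told apart from a difference in the RNA of each cell.

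The Krt5 values of the 6 high left ovaries were 283 in control_10.5, 369 in control_16.9, 374 in control_15.3, 799.5 in control_11.4, 804 in DSS_16.3 and 1121 in control_13.4. The 7 low left ovaries measured 23.5 in DSS_15.1, 26.9 in DSS_10.4, 30.7 in DSS_11.1, 30.9 in DSS_11.2, 36.9 in control_10.6, 47.8 in DSS_10.3 and 52.2 in control_13.5. No left ovary was without Krt5 reads, so the low group was low and not negative. The library nearest to the upper threshold from inside was control_10.5 at 283 and from outside control_15.4 at 95.4. At the lower threshold these were control_13.5 at 52.2 and DSS_13.2 at 89.8.

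Other markers of stratified epithelium separated along the same line. Sprr1a, a cornified envelope precursor, ranged from 319 to 4055 (median 2107) in the high left ovaries and from 63.7 to 242 (median 168) in the low ones. Krt14, the partner of Krt5, ranged from 174 to 833 (median 458) against 3.47 to 20.7. Both genes left a gap between the groups, and the libraries between the Krt5 thresholds lay at 39.1 and 53.0 for Krt14 and at 326.6 and 544 for Sprr1a, the second pair within the Sprr1a range of the high group.

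**Figure D1:**
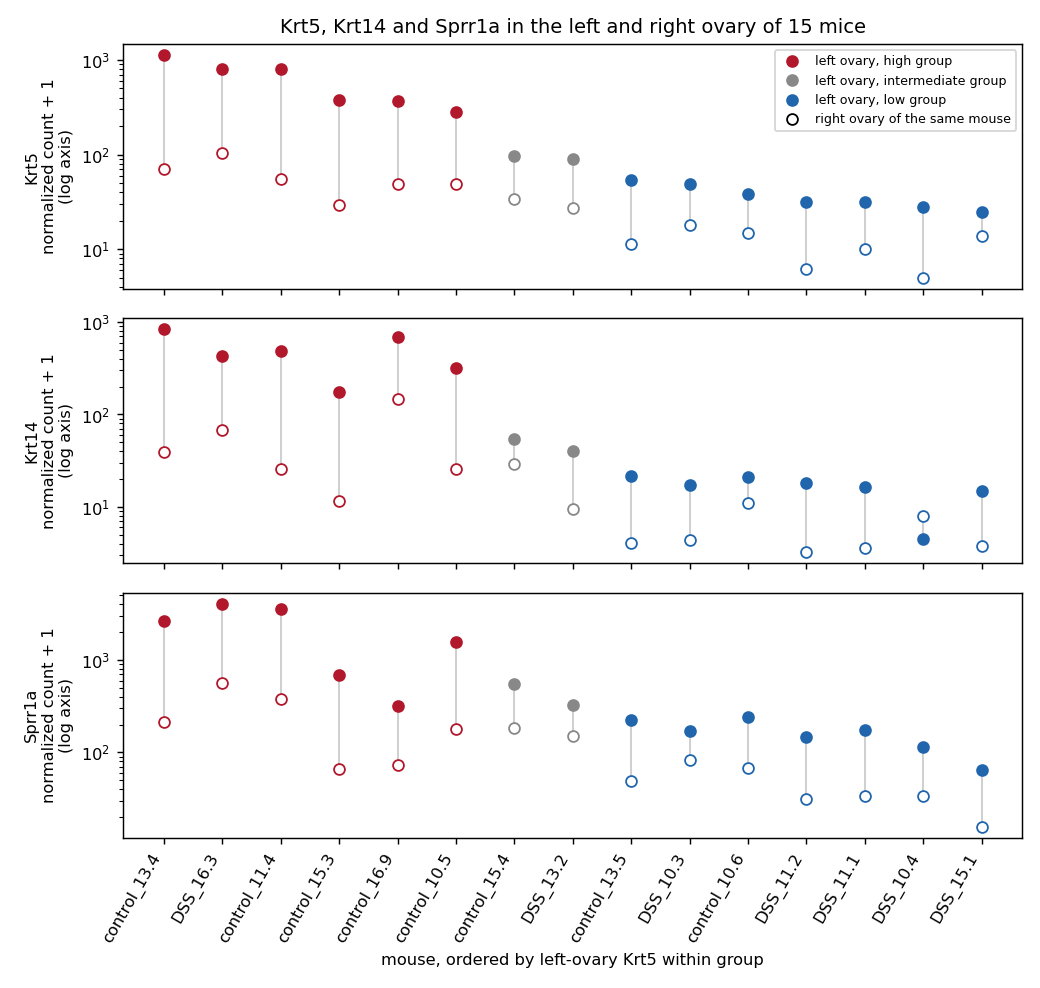
Normalized counts plus 1 of Krt5, Krt14 and Sprr1a (log axis) in each of 15 mice; filled points are left ovaries, coloured by group, and open points are right ovaries of the same mice, joined by a line. The high left ovaries reach 1121 for Krt5, the low ones at most 52.2, and the right ovary lies below the left for each mouse and gene shown except Krt14 in DSS_10.4.

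The start of Sprr1a is printed because it carries motifs that were searched for in all promoters and because Sprr1a had some of the highest values of its list in the high group. The 250 bases before the start, from RefSeq (GRCm38.p6, chr3:92485882-92486131, minus strand), and the same stretch of Krt5 (chr15:101712906-101713155, minus strand) read as follows, with capitals for the AP-1 motif TGANTCA and the TATA motif TATAAA.
Sprr1a: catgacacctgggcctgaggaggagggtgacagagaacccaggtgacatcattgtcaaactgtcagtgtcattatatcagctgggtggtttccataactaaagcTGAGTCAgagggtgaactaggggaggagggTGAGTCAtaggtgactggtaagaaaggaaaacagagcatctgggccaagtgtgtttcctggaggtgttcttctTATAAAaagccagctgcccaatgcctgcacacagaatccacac
Krt5: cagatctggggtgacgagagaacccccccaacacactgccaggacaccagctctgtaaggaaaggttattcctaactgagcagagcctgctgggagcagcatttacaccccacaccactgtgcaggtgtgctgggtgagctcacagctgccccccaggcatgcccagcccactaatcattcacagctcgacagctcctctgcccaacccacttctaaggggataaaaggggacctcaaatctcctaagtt
Sprr1a held the AP-1 motif at 2 places, which began 146 and 116 bases before the start, and TATAAA 43 bases before it. The Krt5 stretch held neither. Both motifs were searched on both strands, and no printed match overlapped another. Of 32851 promoters of this length, 6.75% held the AP-1 motif and 12.4% the TATA motif. Of the 91 promoters of 79 genes in the stratified-epithelium lists, 30.8% and 37.4% did. A match describes the letters and is not evidence of binding.

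A set of 7 lists with 113 genes covered the layers and parts of stratified epithelium, and 111 genes besides Krt5 were in the table. Of these, 61 had a mean of at least 5 over the 13 compared left ovaries and passed this filter, and 50 did not, 11 of which were at 0 in all left ovaries. Among the 50, 30 had a higher mean in the high group. Of the 61, 32 passed only through the level of the high group, so counts over the 61 are descriptions. Among them 55 were higher and 6 lower in the high group, and 33 had every high value above every low value, where 65 of all 14794 genes tested (0.439%) did. The median log2 difference of the 61 was 3.05, beside -0.0056 for all genes tested, and this contrast was used by the rule that chose the groups.

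In the basal list, Krt15, a keratin of basal cells, ranged from 12.4 to 303.3 in the high group and from 4.9 to 22.4 in the low group, with overlap. Sfn, the 14-3-3 protein stratifin, ranged from 65.0 to 181 against 11.36 to 34.8. Col17a1, a hemidesmosome collagen that anchors basal cells, lay between 5.41 and 21.6 in the high group and between 0 and 2.94 in the low group. Lgals7, a galectin of stratified epithelia, had a smaller gap, with 178 to 430 against 87.0 to 158. The groups did not overlap for Sfn, Col17a1 and Lgals7. Trp63, the master transcription factor of stratified epithelium, was low throughout, at 5.68 to 20.1 against 1.28 to 6.62. Itgb4, an integrin of the basement membrane contact that simple epithelia also use, was not separated, at 6.63 to 14.6 and 4.9 to 38.4.

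The keratins of mucosal and activated epithelium showed the widest gaps. Krt13 ranged from 83.5 to 586 (median 419) in the high group and from 8.82 to 20.3 (median 14.1) in the low group, and its partner Krt4 from 75.8 to 429.7 (median 291.1) against 7.81 to 32.0 (median 15.2). Krt6a, a keratin of activated epithelium, ranged from 62.3 to 669 (median 236) against 2.17 to 12.8 (median 4.26), and Krt6b from 30.5 to 925 against 1.09 to 8.95. None of these 4 genes overlapped between the groups. Summed over the list of 10 mucosal and activated keratins, the high left ovaries held 277 to 2651 normalized counts and the low ones 28.6 to 72.9.

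Of the epidermal keratins, Krt1 ranged from 21.2 to 938 against 0.95 to 7.62, and Krt10 from 22.5 to 99.5 against 2.13 to 6.52, again with no overlap. Krt77 and Krt80 were at 0 in all left ovaries, and Krt2, a keratin of the upper epidermis, reached at most 1.09. The 10 hair and nail keratins summed to at most 7.21 in any high and 6.4 in any low left ovary, and Krt27, Krt33a and Krt34 were at 0 in all of them. Of the melanocyte markers, Tyr and Tyrp1, enzymes of pigment synthesis, were at 0 in all left ovaries, and the list of 5 summed to at most 7.96 in the high group.

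Among cornified envelope genes, Cnfn (cornifelin) ranged from 70.3 to 252 (median 112) in the high group and from 2.6 to 10.41 (median 5.43) in the low group. Lor, encoding loricrin, ranged from 9.28 to 410 against 2.94 to 6.4. Calml3, a calmodulin-like protein of differentiating epithelium, ranged from 15.32 to 113 against 0.95 to 11.7. The groups were apart for each of these genes, and also for Sprr3 (3.98 to 52.2 against 0 to 1.28), for Rptn, encoding repetin (9.91 to 45.9 against 0 to 6.53), and for Flg, encoding filaggrin (5.3 to 47.5 against 0 to 3.84). Of 37 listed genes, 22 passed the filter and 14 of these did not overlap between the groups, where 0.439% of all genes tested were higher without overlap.

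The desmosome and junction list was less divided, and several of its genes are also expressed by simple epithelia. Dsp, the desmosome plaque protein desmoplakin, ranged from 277 to 724 in the high group and from 115 to 414 in the low group. Perp, a desmosome membrane protein, ranged from 33.1 to 232 against 16.6 to 39.6. Dsg2 and Cdh1, a desmoglein and E-cadherin of simple and stratified epithelia, ranged from 90.8 to 112 against 72.5 to 188, and from 51.4 to 131 against 41.6 to 504. Each of these genes overlapped between the groups, and of the 10 members that passed the filter only Pkp1, a plakophilin of suprabasal desmosomes, did not (18.0 to 87.1 against 0 to 7.67).

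Of the proteases, inhibitors and surface proteins of keratinocytes, Ly6d, a GPI-anchored surface protein, ranged from 117 to 408 in the high group and reached at most 33.7 in the low group. Spink5, the inhibitor of epidermal kallikreins, ranged from 30.5 to 168 against 0 to 5.68, and Klk13, one such protease, from 10.61 to 63.0 against 0 to 7.61. Klk11 and Anxa8 were not separated in this way. Of the 14 genes of this list that passed the filter, 13 were higher and 1 lower in the high group. Klk11 ranged from 9.28 to 19.2 in the high group and from 0.95 to 163 in the low group, and Anxa8, an annexin, from 10.2 to 39.2 and from 0 to 139.7. Their highest low-group values came from DSS_11.2, the left ovary with the most Ovgp1, an oviduct transcript (66716), and Cdh1 also had its highest low-group value there.

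**Figure D2:**
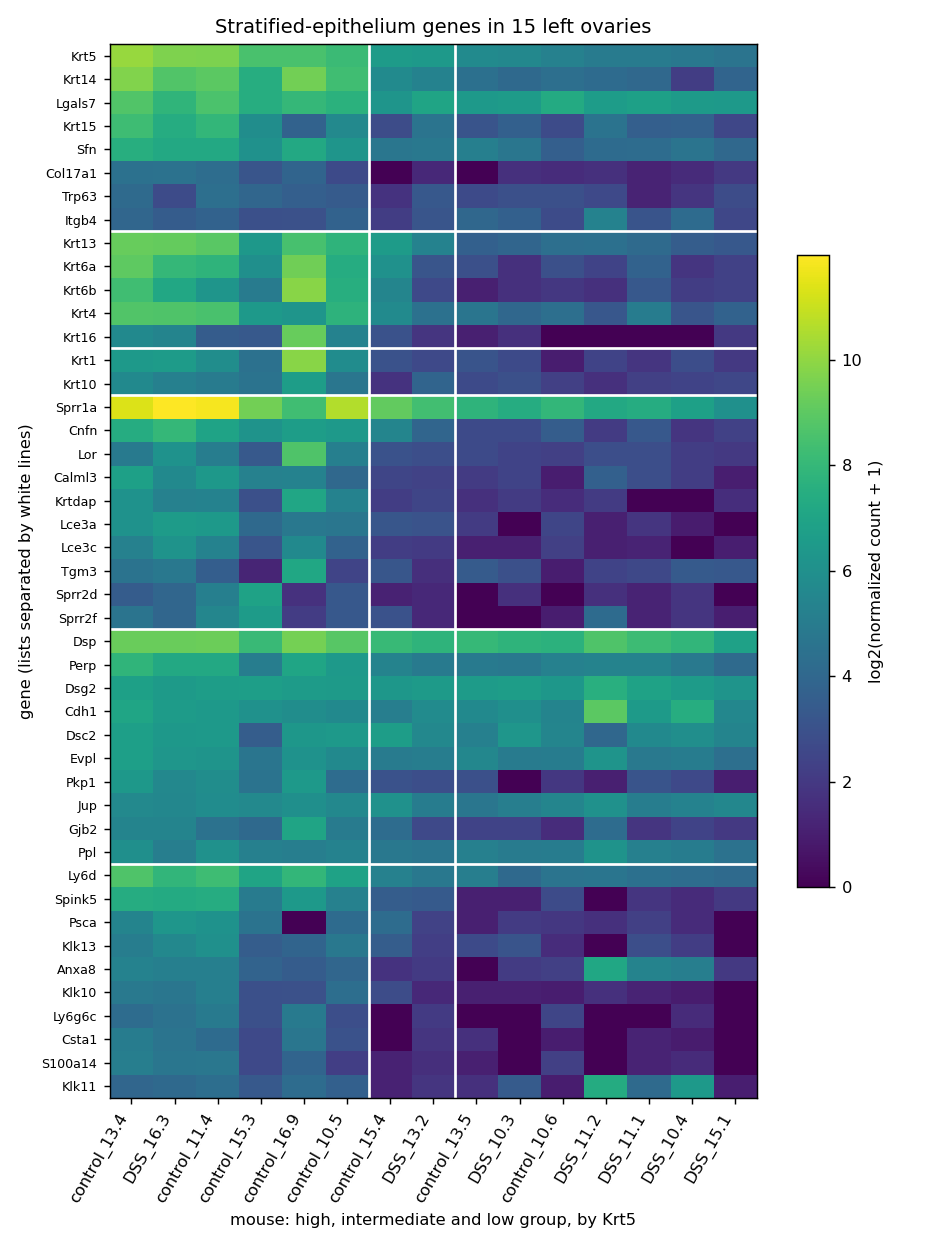
Log2(normalized count + 1) of 45 stratified-epithelium genes (rows, at most 10 per list, with a high-group mean of at least 10) in 15 left ovaries (columns, ordered by Krt5 within the high, intermediate and low groups, which white lines separate). The 6 columns on the left are bright across the keratin and envelope rows, and control_16.9 differs from its neighbours in Krt15, Krt16, Krt1, Lor and Psca.

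The high left ovaries were not uniform. In control_16.9, Krt1 reached 938 while it lay between 21.2 and 94.2 in the other 5, and Krt16, a keratin of activated epithelium, reached 594 beside 9.28 to 50.4. Lor was 410 in control_16.9 against 9.28 to 67.0 in the others, and Hrnr, encoding the envelope protein hornerin, 158 against 1.33 to 13.43. The ratio of Krt1 to Krt4 was 12.4 in control_16.9 and between 0.159 and 0.264 in the other 5. Sprr1a per Krt5 was 0.865 in control_16.9 and between 1.83 and 5.57 in the others, and Psca, a surface protein of mucosal epithelia, was 0 there and 17.1 to 77.2 elsewhere in the group. Relative to Krt4, this library thus had more Krt1 than the other high left ovaries. It was 1 library, and these ratios have no replicate. The right ovary of the same mouse also had the highest Krt1 (119, against 4.38 to 26.0 in the other right ovaries of high mice) and Krt16 (70.03 against 0 to 11.9).

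Genes outside the lists were tested. Those of stratified epithelium that no list held share the signal that chose the groups, and for them and for genes almost absent from the low group the values below are a description. With limma, 23 of 14733 genes (0.156%) passed an adjusted p under 0.05 with a higher level in the high group, and 0 (0%) passed with a lower level. At an unadjusted p under 0.05 there were 546 higher and 630 lower genes. On reads recovered from the table, edgeR called 28 genes, all higher, and DESeq2 called 133, of which 53 were higher and 80 lower. Of these 80 lower genes among 14733, 9 belonged to the oviduct and motile cilium lists, in which 5 and 11 genes passed the filter. Of the 23 genes, 18 had a low-group mean under 5 normalized counts and thus entered the test through the high group, and 17 did not overlap between the groups, read beside the 0.439% of all genes. Their log2 differences on the log2(value + 1) scale ran from 0.56 to 4.56, with a median of 3.34.

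Arg1, the enzyme that splits arginine into ornithine and urea, had the smallest p. It ranged from 162 to 659 (median 343) in the high left ovaries and from 9.79 to 55.8 (median 40.8) in the low ones, with no overlap. Its mean was 381 ± 205 (SD, n = 6) against 35.8 ± 14.96 (SD, n = 7), a log2 difference of 3.34 (SE 0.38; limma, adjusted p = 1.4e-04). Besides keratinocytes, liver and some macrophages make Arg1. Of 12 macrophage genes 1 was higher and 11 lower in the high group and none passed, C1qc ranged from 428 to 917 in the high and from 504 to 848 in the low group, and the summed list ranged from 1230.4 to 2363 and from 1584 to 2195. The liver list summed to 270.3 to 629.9 in the high and 163 to 444 in the low group. Its 2 genes that passed the filter were both higher in the high group (median log2 difference 0.32). Which cells the Arg1 reads came from was not tested.

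Several of the 23 genes belong to cornified epithelium but were on no list. Lce3b, a late cornified envelope gene, ranged from 6.63 to 52.2 in the high group and from 0 to 1.28 in the low group. Lce3e, of the same family, ranged from 2.65 to 76.1 against 0 to 5.11. Asprv1, the skin protease that processes filaggrin, ranged from 6.63 to 93.1 against 1.09 to 3.92, and Dsg1a, a desmoglein of the upper layers, from 1.33 to 39.6 against 0 to 1.28. Zfp750, a transcription factor of terminal keratinocyte differentiation, ranged from 42.4 to 111 against 12.2 to 47.8. Asprv1 left a gap between the groups, and Lce3e and Zfp750 did not. Dsg1a is counted as without overlap, but only the scaling of the libraries separates its edge values. Its lowest high value (1.33, control_15.3) and its highest low value (1.28, DSS_11.1) were each 1 read.

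Other genes of squamous or barrier epithelia among the 23 were Trim29, a tripartite motif protein, at 7.96 to 43.6 against 0 to 5.68, and Dapl1, related to a death-associated protein, at 10.8 to 72.7 against 0.87 to 9.79. Tmprss11b, a membrane serine protease, ranged from 5.65 to 58.2 against 0 to 2.17, and Lypd2, a Ly6-family surface protein, from 7.96 to 26.1 against 0 to 5.33. Nccrp1, an F-box-like protein, ranged from 9.28 to 64.8 against 0.87 to 2.84. It overlaps Samd4b on the same strand, so its reads may be shared with that gene. None of these 5 genes overlapped between the groups. Pof1b, an actin-binding protein of epithelial junctions, and Adgrf4, an adhesion receptor, had lower levels, at 6.63 to 14.6 against 0.95 to 5.21 and at 7.21 to 25.7 against 1.28 to 7.57. Whether reads were counted by strand is not given in the sources used here, so reads of Krt5, Zfp750, BC100530, Esp8 and Apc cannot be told apart from those of genes on the opposite strand, and Pof1b and Gm37949 overlap a gene on their own strand.

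Of the 23 genes, 3 lay near each other on chromosome 5, which as a whole holds 6.97% of all genes tested. Smr2, known from the submaxillary gland, lies at 88086556 to 88109353, Gm42164 at 88210659 to 88211037 and Gm7714 at 88268919 to 88282835, as deposited on GRCm38.p5. Gm7714 ranged from 26.0 to 185 in the high and from 0 to 17.04 in the low group, Gm42164 from 11.7 to 52.2 and from 0 to 7.57, and Smr2 from 12.6 to 60.2 and from 0 to 7.57. No value of these genes overlapped between the groups. Bpifa2, an abundant salivary protein, did not pass: it was 586 in control_13.4 and 186 in DSS_16.3 and between 9.13 and 30.5 in the other high left ovaries, against 3.79 to 26.4 in the low group. The part of glandular tissue in these values was not tested. 2310057J18Rik, on chromosome 10, ranged from 24.9 to 160.03 against 0 to 19.9.

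Of the remaining genes past the threshold, Gm94 ranged from 0 to 81.4 in the high group, where control_15.3 had 0, and from 0 to 1.09 in the low group. BC100530 ranged from 3.41 to 52.0 against 0 to 2.56, Fam25c from 2.65 to 33.9 against 0 to 2.18, and Esp8, an exocrine gland peptide, from 9.05 to 34.7 against 0 to 6.62. The edge values of Fam25c, 2.65 and 2.18, came from equal numbers of reads, so only the scaling of the libraries separates them. Mta1, a subunit of the NuRD chromatin complex, had the smallest difference, with 90.1 to 145 against 70.4 to 95.7 (log2 difference 0.56, limma adjusted p = 0.0457). It was not called with quantile normalization, TMM scaling, a split at 100, a treatment term or in most fits without 1 mouse. Lists and called genes together showed a shared position. Of the 65 genes higher in the high group without overlap, 11 (16.92%) lay on chromosome 3 between 92079971 and 93399742, the epidermal differentiation complex, where 5.43% of all genes tested lie on that whole chromosome. The rule used this contrast, and the figures are a description.

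**Figure D3:**
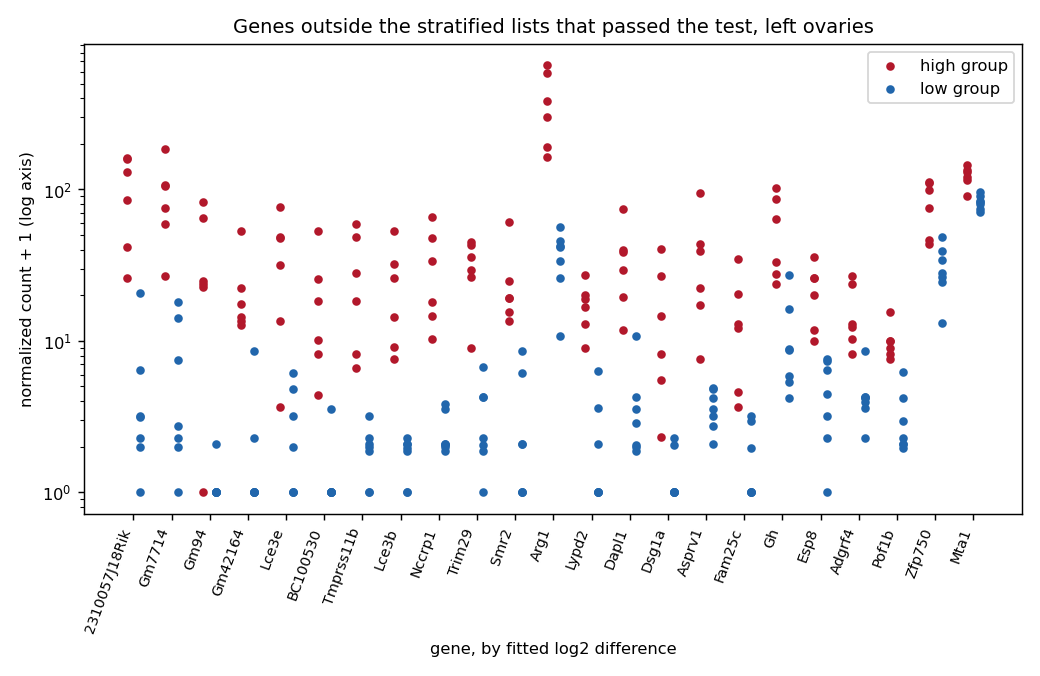
Normalized counts plus 1 (log axis) of the 23 genes outside the stratified-epithelium lists with an adjusted p under 0.05, ordered by log2 difference; each point is 1 left ovary of the high (6) or low (7) group. Arg1 has the highest levels, and Mta1, at the right end, has the smallest difference.

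With a term for treatment, 14 genes outside the lists passed, of which 11 were among the 23: Arg1, Nccrp1, 2310057J18Rik, Lce3b, Trim29, Dapl1, Gm7714, Tmprss11b, Gm42164, Lypd2 and Asprv1. Among control mice alone (5 high, 2 low) 5 passed, of which Arg1, Lypd2 and BC100530 were among the 23. Among DSS mice alone, where the high group is DSS_16.3 and is assumed to vary like the low group, 0 passed, with 163 higher and 312 lower genes at an unadjusted p under 0.05 (limma; edgeR and DESeq2 were not run on DSS mice alone). The count was 14 without DSS_16.3, 14 without control_11.4 and 13 without control_13.4. The same 13 of the 23 genes passed in each of the 13 fits without 1 mouse. They were the 11 named above, Smr2 and BC100530.

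The 5 genes with the smallest p among those lower in the high group did not pass. Apc, the Wnt pathway scaffold, ranged from 61.0 to 96.5 in the high group and from 99.0 to 134 in the low group (log2 difference -0.55, SE 0.12; limma, adjusted p = 0.0575). Zufsp, a ubiquitin-specific peptidase, ranged from 203 to 317 against 332 to 546 (-0.56, adjusted p = 0.0612 with limma). Aox3, an aldehyde oxidase, ranged from 11.9 to 20.4 against 24.5 to 56.5, Gm37949 from 10.1 to 31.5 against 26.9 to 55.4, and Cep290, a ciliary protein, from 62.2 to 88.8 against 84.9 to 191. Some passed under alternatives. Zufsp did under TMM scaling and without mice over 5000 Ovgp1, and Apc in the fit of all 15 mice split at 100. Apc, Gm37949 and Cep290 passed in the fit on continuous Krt5. Apc, Zufsp, Gm37949 and Cep290 each also passed in at least 1 fit without 1 mouse. These 5 genes were picked by their small p, so the separation of their ranges is a description.

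Gh, the transcript of a pituitary hormone, was higher in both ovaries of the high mice. Gh, encoding growth hormone, was 85.1 in DSS_16.3, 32.4 in control_10.5, 63.0 in control_11.4, 100.7 in control_13.4, 26.5 in control_15.3 and 22.6 in control_16.9 in the left ovaries of the high group. In the low group it was 7.81 in DSS_10.4, 4.35 in DSS_10.3, 3.2 in DSS_11.2, 7.67 in DSS_11.1, 4.9 in DSS_15.1, 15.14 in control_10.6 and 26.1 in control_13.5. The high values were above the low ones except for control_13.5, which exceeded control_16.9. The mean was 55.1 ± 33.0 (SD, n = 6) against 9.88 ± 8.17 (SD, n = 7), a log2 difference of 2.43 (SE 0.44; limma, adjusted p = 0.0141). DSS_13.2, between the Krt5 thresholds, had 90.4. Prl, encoding prolactin, ranged from 6.78 to 25.0 against 0 to 7.62 (log2 difference 2.20, limma adjusted p = 0.0869). Lhb, the luteinizing hormone subunit, ranged from 1.83 to 6.78 against 4.73 to 27.7, and Fshb was at 0 in all left ovaries. With a term for treatment the adjusted p of Gh was 0.253 (limma), and among control mice alone it was 0.989. In left ovaries Gh was also not called without DSS_16.3, without control_11.4 or without control_13.4. Nor was it called with all 15 mice split at 100 or without the mice over 5000 Ovgp1. The tissue these reads came from was not tested.

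In the right ovaries of the same mice, which the rule did not use, Krt5, Krt14 and a few other genes of stratified epithelium were higher in mice of the high-left group, and most list genes did not pass. Krt5 was 28.05 to 103 (median 51.3) in the right ovaries of the 6 high-left mice and as low as 3.97 (median 10.35) in those of the 7 low-left mice, whose highest value was below the lowest of the high-left mice. The means were 58.5 ± 25.7 (SD, n = 6) and 10.29 ± 4.65 (SD, n = 7), a log2 difference of 2.41 (exact permutation test, two-sided, p = 0.00117, the smallest that 6 against 7 mice can give). Krt14 ranged from 10.52 to 145 against 2.21 to 9.96, a log2 difference of 2.96 with the same exact p of 0.00117. Sprr1a ranged from 64.9 to 565 against 14.7 to 81.1, with overlap, and a log2 difference of 2.22 (exact permutation test, two-sided, p = 0.00583). The right ovaries of the mice between the thresholds had 26.5 and 33.3 for Krt5, at the lower edge of the high-left mice.

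In a fit across all genes of the right ovaries, 8 of 14538 genes (0.0550%) passed, all higher in the high-left mice, and 6 of them were among the 35 list genes besides Krt5 that passed the filter. These were, with the adjusted p, Krt14 (limma, adjusted p = 0.0281), Cnfn (0.0312), Ly6d (0.0333), Krt4 (0.0414), Krt13 (0.0471) and Krt6a (0.0486), and the other two were Krt5 (0.00659) and Gh (0.0281). Cnfn ranged from 8.77 to 30.7 in the high-left mice and from 0 to 11.21 in the low-left mice, Ly6d from 16.4 to 36.4 and from 1.99 to 15.6, and Krt6a from 7.01 to 146 and from 0 to 6.76. Of the 35 list genes, 31 were higher and 4 lower, with a median log2 difference of 1.08 beside 0.0013 for all genes tested. Right-ovary values of 18 of 14538 genes (0.124%) were higher without overlap, 4 of them list genes besides Krt5. Sprr1a did not pass in this fit (limma, adjusted p = 0.147).

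The calls in the right ovaries were few and not stable. 0 genes passed with a term for treatment (427 higher and 383 lower at an unadjusted p under 0.05, limma), 0 without the mice that had an ovary over 5000 Ovgp1 (718 outside the lists at an unadjusted p under 0.05) and 0 among control mice alone (527 and 317). On recovered reads, edgeR called 8 genes and DESeq2 22. Krt5 was the only gene called without DSS_10.4, DSS_11.2, DSS_15.1, control_11.4, control_13.4, control_13.5 or control_16.9 (1 gene each). The count was 2 without DSS_16.3, 3 without control_10.5 and 4 without control_10.6. Gh in right ovaries reached 69.1 in high-left mice and was 0.74 to 8.72 in low-left mice, with no overlap, and a mean of 35.2 ± 22.3 (SD, n = 6) against 3.89 ± 2.75 (SD, n = 7).

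Arg1 also differed between the sides of a mouse. Its right-ovary values were 32.7 to 80.3 in high-left mice and 4.59 to 26.1 in low-left mice, with no overlap (log2 difference 1.61, limma adjusted p = 0.147). The left minus right log2 difference of each mouse, which takes the mouse as its own block, was larger in high mice by 1.73 (SE 0.24; limma, adjusted p = 0.00859), the only gene of 14636 outside the lists to pass. Over all genes, the share passing as higher was 0.0204%. This difference includes the left values, so list genes are given no test in it. Arg1 was picked out by the same left values, so its result here is a description and not separate support. In the fit with no replicate block, in which left and right libraries are not paired, 0 genes outside the lists passed (373 higher and 614 lower at an unadjusted p under 0.05, limma) and Arg1 had an adjusted p of 0.553. Arg1 was also not called with a term for treatment (adjusted p = 0.110, limma) or without control_11.4 (0.0539), control_13.4 (0.0525) or control_15.3 (0.0532), and in each of these 3 fits 0 genes outside the lists passed, with 476 to 504 higher and 729 to 773 lower at an unadjusted p under 0.05 (limma).

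**Figure D4:**
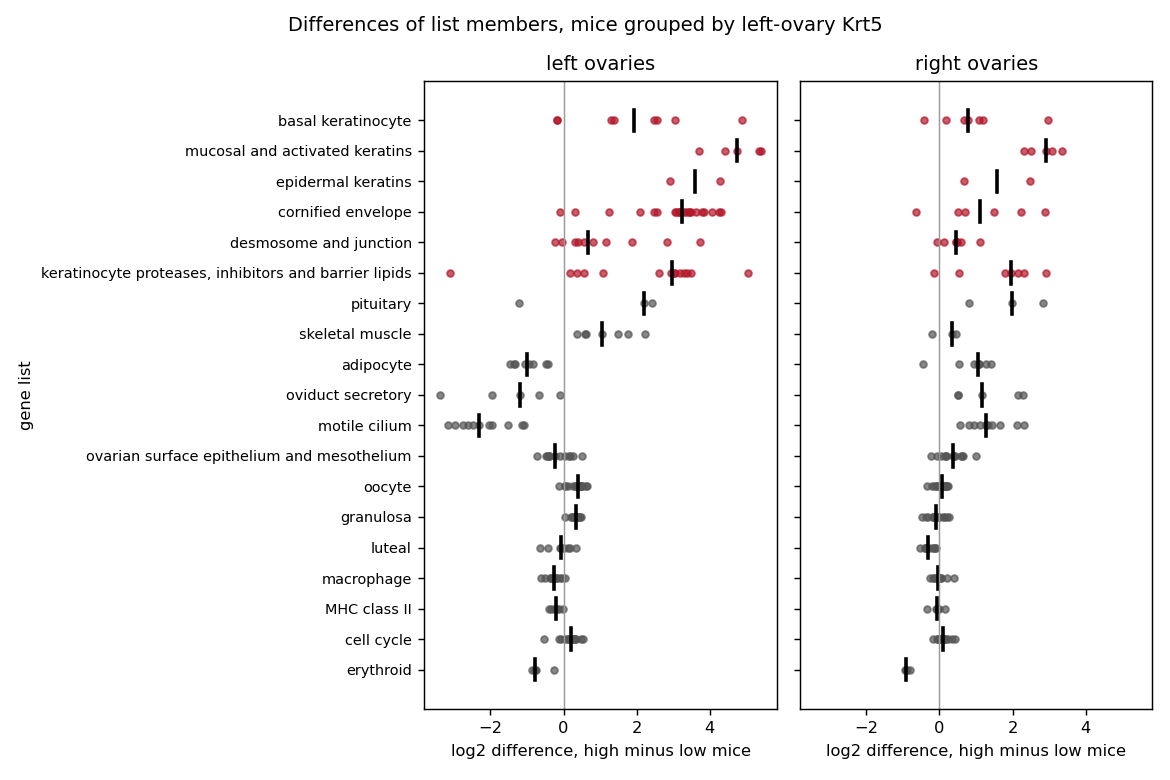
Log2 differences between mice of the high and low left-ovary groups for members of 19 gene lists (rows) in left and right ovaries; each point is a gene that passed the filter, black bars are list medians and red marks stratified epithelium. The medians of the red lists are above 0 on both sides, and the oviduct, cilium and adipocyte medians are below 0 in left and above 0 in right ovaries.

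The right ovary had less of these transcripts than the left in most cases. Over the stratified-epithelium genes at 50 or more in a left ovary, the right ovary held a median of 15.12% of the left value in DSS_16.3 (27 genes), 28.3% in control_10.5 (18 genes), 11.5% in control_11.4 (27), 8.81% in control_13.4 (27), 13.43% in control_15.3 (17) and 19.8% in control_16.9 (33). In the low mice the medians ran from 19.3% in DSS_11.2 to 100.8% in DSS_15.1, over 4 to 12 genes. Krt5 in the right ovary was 6.17% to 16.955% of the left in high mice and 14.8% to 54.7% in low mice. The left values in the denominator are those the rule used. Genes were also taken by a left value of at least 50, which by itself favours a lower right value. The percentages are thus a description.

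**Figure D5:**
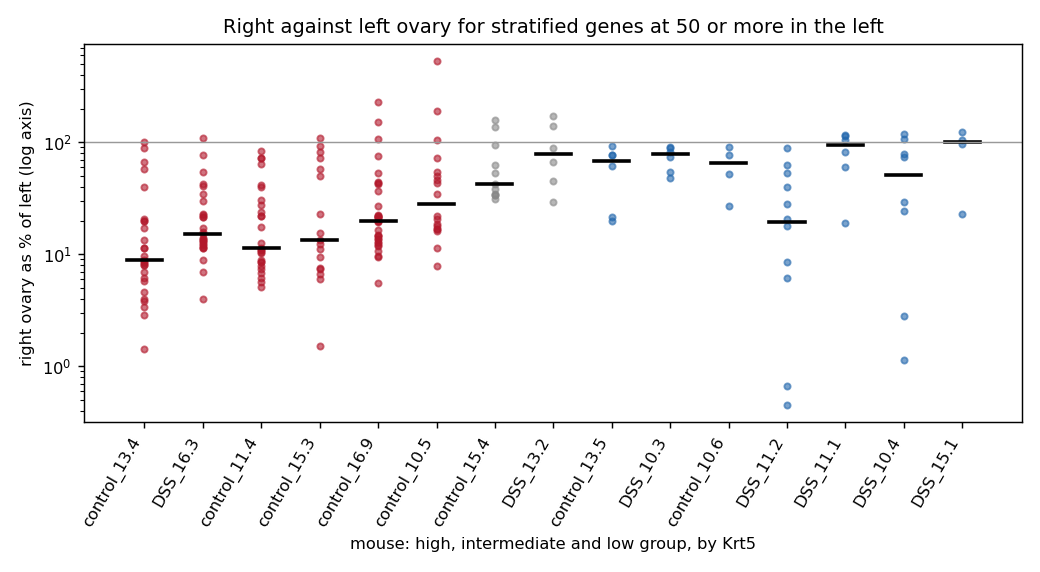
Right-ovary value as a percent of the left-ovary value (log axis) for stratified-epithelium genes at 50 or more in the left ovary; each point is a gene, black bars are medians per mouse, and right values of 0 enter the median but are not drawn. Medians of the 6 high mice lie between 8.81% and 28.3%.

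Markers of other tissues near the ovary had lower medians in the high left ovaries, but no gene of these lists passed with limma. Among control mice alone, 2 of the 3 medians turned. Ovgp1, the major secreted glycoprotein of the oviduct, ranged from 145 to 429 in the high left ovaries and from 155 to 66716 in the low ones, where DSS_10.4, DSS_11.1 and DSS_11.2 were all above 5000. Of the oviduct secretory list, 0 of 5 genes were higher (median log2 difference -1.18), and of the motile cilium list 0 of 11 (-2.31). None passed with limma, whereas DESeq2 called 9 genes of the oviduct and cilium lists lower. Ccdc153, a cilium gene, ranged from 1.33 to 21.5 against 12.3 to 806. Sox17, a transcription factor of oviduct epithelium, ranged from 62.7 to 101 against 92.5 to 992. The adipocyte list also had 0 of 8 genes higher (median -0.996), with Cfd, the adipocyte protease adipsin, at 20.4 to 924 against 86.9 to 2688. Among control mice alone these medians were 0.15 for oviduct, -0.0059 for cilium and 0.22 for adipocytes. Without the mice over 5000 Ovgp1, 33 genes outside the lists passed (32 higher), and the part of the nearby tissues in the 23 calls was otherwise not tested. In the right ovaries the median of the 11 cilium genes was 1.28, none passed with limma, and this median changed sign among DSS mice alone. Ovgp1 there was at 133 to 41925 against 110.15 to 10440.

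Lists for cells of the ovary itself had small median differences, and whether these cells were equal between the groups was not tested. All 14 granulosa genes that passed the filter were higher in the high left ovaries, with a median log2 difference of 0.35 and 0 past the threshold (limma), and this median was -0.07 among control mice alone. Inha, the inhibin alpha subunit, ranged from 10857 to 15460 in the high and from 5022 to 15177 in the low group. Of 18 oocyte genes, 17 were higher (median 0.40, and 0.11 among control mice alone), and Nlrp14 ranged from 488 to 780 against 202 to 599. The luteal list had a median of -0.06. Wt1 and Krt8, expressed by the ovarian surface and other simple epithelia, ranged from 3195 to 3989 against 3406 to 6135, and from 133 to 168 against 122 to 828. Of these lists 0 genes passed with limma.

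Among immune and blood lists, all 7 genes for MHC class II were lower in the high left ovaries (median log2 difference -0.20, but 0.10 among control mice alone), all 5 erythroid genes were lower (-0.78) and 11 of 12 macrophage genes were lower (-0.26), with 0 past the threshold (limma). Cd74, the class II chaperone, ranged from 1536 to 2035 against 1509 to 3223, and Hbb-bs, a beta globin, from 1181 to 3122 against 1517 to 7915. All 5 erythroid genes were also lower in the right ovaries of high-left mice (-0.91). S100a9, an alarmin of neutrophils and of stressed keratinocytes, ranged from 0 to 61.0 against 0 to 3.47 (log2 difference 2.07, limma adjusted p = 0.513). The 7 skeletal muscle genes that passed the filter were all higher (median 1.06), with none past the threshold in limma. On recovered reads, edgeR called Mb and Tnnc2 of this list higher. Myh2, a fast myosin, ranged from 12.4 to 63.6 against 4.9 to 32.6.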

How the data were processed

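RNA of 30 ovaries (left and right of 15 mice) was counted by CEL-Seq, each library built with a pool of 3 barcoded primers. The authors deposited 1 table of normalized counts (a signal scaled by size factors, 50600 genes). TopHat, HTSeq, DESeq2 and the genome build GRCm38.p5 are named per the submitters' processing notes, with versions not given in the sources used here. The values of a library fell on multiples of 1 step (99.82% to 99.995% whole within 0.0051), so reads were recovered, 3095386 to 8564770 per library. 

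Left and right libraries were compared separately on log2(value + 1), which understates changes of low genes, after a filter of a mean of at least 5. The test was limma 3.58.1 with a mean trend in R 4.3.3, with Benjamini-Hochberg adjustment over all genes and a threshold of 0.05. The 2 sides of a mouse come from the same animal, so the left minus right difference per mouse was the paired fit. Exact tests used scipy 1.17.1. On the recovered reads, edgeR 4.0.16 and DESeq2 1.42.0 were run as alternatives, beside other pseudocounts, filters, scalings, splits, a treatment term and leaving out each mouse. The fitting was tested on simulated data.

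Genes outside the stratified-epithelium lists were named where the adjusted p passed, with the 5 lower genes of smallest p. List genes were named by role, and not all members that the rule names are described. The members and lists were chosen with earlier results of these data known. Gene coordinates are those in the deposited table, and strands come from GENCODE M21, where 50376 identifiers were found. Promoters come from RefSeq on GRCm38.p6. Values of 1 listed gene are not reported here, although it is in the counts over its list.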

Additional observations from a re-analysis of the deposited data

Results flagged for a closer look

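In groups of 6 or 7 values, a sample was noted where its gap to the nearest value was large against the range of its group (Dixon's 95% limit, on log2(value + 1)). This applied to 20 of 267 groups of values (7.49%), and chance gives about 1 in 20 for independent, normally distributed values. The groups of values share mice and related genes, so no excess over chance can be read from this share. In left ovaries, Krt14 was 3.47 in DSS_10.4, below the other low mice, and Lgals7 was 158.05 in control_10.6, above them. Gm42164 was 7.57 in control_10.6. Psca was 0 in control_16.9, Gm94 was 0 and Trim29 7.96 in control_15.3, each the lowest of the high group. Lhb was lowest among high mice in control_11.4 (1.83). DSS_11.2 was the highest of the low group for Wt1 (6134.6) and the lowest for Nlrp14 (201.5), an oocyte gene.

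In right ovaries, control_15.3 was lowest among the high-left mice for Krt13 (6.14) and Spink5 (0), and control_16.9 was highest for BC100530 (10.27). Among low-left mice, control_10.6 was highest for Cnfn (11.21) and lowest for Zfp750 (12.45), and DSS_11.1 was highest for Cdh1 (102.99), Sox17 (183.82) and Ccdc153 (271.16) and lowest for Bpifa2 (1.3). The right ovary of control_10.5 was highest for Sox17 (597.63) and lowest for Inha (5960.3) among high-left mice. The difference between high and low mice was larger in left than in right ovaries for Arg1, by 1.73 on the log2 scale (limma, adjusted p = 0.00859). This fit includes the left values by which the groups differ, so the result is a description.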

How the results depend on the processing

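The 23 calls outside the lists in left ovaries were 37 with no filter, 4 with a filter of a mean of at least 20, 14 with a treatment term, 133 with DESeq2, and 13 to 30 when 1 mouse was left out. Among control mice only there were 5 and among DSS mice only 0, alternatives added after seeing the data, in which fewer mice were tested. The 8 calls in right ovaries were 5 with a pseudocount of 0.5, 1 with a filter of 20, 22 with DESeq2, 1 to 12 without 1 mouse, and 0 when split at 100, with a treatment term, without mice over 5000 Ovgp1, among control mice only or among DSS mice only (130 higher and 198 lower at an unadjusted p under 0.05, limma). For the left minus right difference, 1 gene outside the lists became 13 with a pseudocount of 5, 3 with quantile normalization, a split at 100 or continuous Krt5, 2 with a treatment term, 9 without mice over 5000 Ovgp1, 8 among control mice only, 0 among DSS mice only (101 higher and 175 lower at an unadjusted p under 0.05, limma) and 0 to 7 without 1 mouse. The pairing of both ovaries mattered for it: with no replicate block the count was 0. The causes were not tested. Of 939 values of 36 single results under alternatives, 695 kept direction and side of the threshold, 227 lost the call, 17 gained one and 0 turned direction.

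A limit is that 5 of 6 high mice were controls and 5 of 7 low mice had DSS. Low counts bound the calls, since 18 of 23 genes had a low-group mean under 5.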
